A study of Mus musculus with 2 samples.

Results

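Collagen genes were examined in the fetal mouse esophagus as all probe sets of the array whose platform annotation gives 1 gene symbol of the form Col, a number, a and a number. The rule found 82 probe sets of 42 genes, among 45037 non-control probe sets and 18193 singly named genes in all. The study compared 1 wild-type array with 1 array labelled as null for Myf5 and Myod1, which encode factors that set cells on the skeletal muscle path. Both RNA samples came from esophagus of BALB/c embryos at E18.5, as their labels state, and the null sample carries both mutations together. The null-labelled alleles are not described further, and neither is the number or sex of the embryos behind each RNA sample. There was no replicate of either genotype, so each ratio compares 2 RNA samples and carries no test. In bulk tissue, fewer cells of a type and less RNA per cell cannot be told apart.

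Collagens are trimers of chains that wind around each other through repeats of glycine and 2 further residues. Fibrillar collagens form the tensile fibers of connective tissue. Basement membrane collagens form sheets under epithelia and around muscle fibers, FACIT collagens sit on the surface of fibrils, and transmembrane collagens span the cell membrane. The esophagus holds all these settings: a stratified epithelium on its basement membrane, a fibrous submucosa and a muscle coat. In the mouse that coat turns from smooth to striated muscle around birth, the process that the series title names.

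The values are MAS5 signals, linear array intensities that Affymetrix's method gives for each probe set. Signals of different probe sets cannot be set against each other as amounts of RNA, so each ratio below is between arrays within a probe set. The summed signals of marker lists do add different probe sets. The brightest probe sets weigh most in them, and they are not amounts of RNA. A low-signal limit of 489, the median signal when non-control probe sets of both arrays are pooled, replaced every lower value. Each log2 ratio sets the null-labelled signal over the wild-type one. A gene under the limit on both arrays was treated as not measured, and a gene under it on 1 array has only a bound, written "at least". Myf5 read 4072 in wild type and 496 in the null-labelled sample, 8.22-fold lower. Myod1 read 2001 and 1698 at its stronger probe set and was under the limit on both arrays at the other. Whether these probe sets fall inside the disrupted sequence was not known here, and the array is called null-labelled throughout. Of the non-control probe sets, 44.6% reached the limit in wild type and 55.4% in the null-labelled sample. The 3' over 5' signal of the beta-actin control was 12.6 in wild type and 14.2 in the other sample, and that of the Gapdh control was 10.5 and 6.96. The arrays were further apart at the pyruvate carboxylase control (2.38 and 0.355) and the transferrin receptor control (3.30 and 1.19), and the 18S RNA control gave 0.938 and 1.16. The part of RNA quality in the collagen ratios was not tested.

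Most measured collagen genes, 28 of 33, were less than 2-fold apart, as were 11801 of all 13315 measured genes. Of 42 genes, 33 were measured and 9 lay under the limit on both arrays. Of the 33, 1 gene read at least 2-fold lower on the null-labelled array, Col15a1, against 5.36% of all 13315 measured genes. Higher by 2-fold or more were 4 genes, Col4a6, Col19a1, Col22a1 and Col25a1, against 6.01% of all measured genes. As shares of the 33 these are 3.03% and 12.1%. For 3 of the 4 higher genes the wild-type signal was under the limit, so that they entered the count only through the array on which they were high. Among the 27 collagen genes that reached the limit on both arrays, 1 was lower and 1 higher, where 4.99% and 4.4% of the 10346 such genes were. The median log2 ratio was 0.21 for the 33 collagen genes and 0.16 for the 27, against 0.086 for all measured genes and 0.014 for those at the limit on both arrays. Other scalings left the collagen median above 0 (0.12 centred on the median ratio, 0.23 with quantile normalization, 0.13 with loess on signal). They did move the split over all genes, from 714 lower and 800 higher to 831 and 612, 808 and 544, and 954 and 438 in that order, and the collagen split to 1 and 4, 1 and 3, and 2 and 2.

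**Figure D1:**
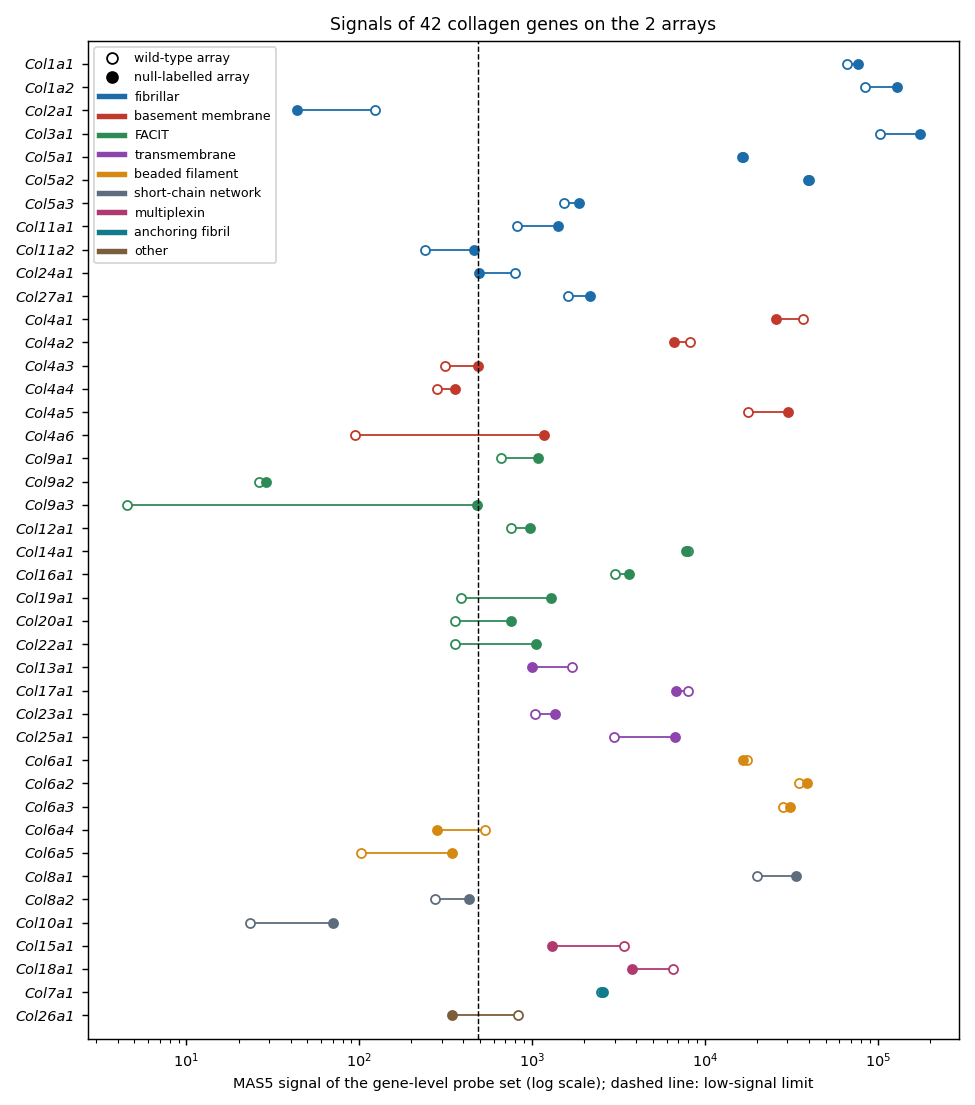
MAS5 signals of the probe set that stands for each of 42 collagen genes, on a log axis, with open circles for the wild-type and filled circles for the null-labelled array. The line between circles is long for Col4a6, Col19a1, Col22a1 and Col25a1 (higher on the null-labelled array) and Col15a1 (lower), and 9 genes have both circles under the limit of 489, Col9a3 among them.

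None of the 9 measured fibrillar collagens of interstitial connective tissue was 2-fold apart, where 11.4% of all measured genes were. With 9 genes, 0 cannot be told apart from that share. Of 11 fibrillar genes 9 were measured, 6 with a ratio above 0 and 3 below, and the median log2 ratio was 0.28. Col1a1 and Col1a2 encode the chains of collagen I, the main fiber of tendon, bone and submucosa. Col1a1 read 66649 in wild type and 77075 in the null-labelled sample, 1.16-fold higher; wild type comes before null-labelled in each pair of signals that follows. Its other probe set read 4163 and 5697, a log2 ratio of 0.45. Col1a2 read 84443 and 129978, 1.54-fold higher, and another probe set of it, at 45642 and 68179, gave nearly the same log2 ratio (0.58 against 0.62). A further Col1a2 probe set stayed under the limit, at 322 and 486. Collagen III, which mixes with collagen I in distensible tissues such as gut wall and vessels, is made by Col3a1 alone. Col3a1 read 103465 and 175150, 1.69-fold higher, but 31587 and 34841 at its other probe set, a log2 ratio of 0.14.

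The ratios of Col1a2 and Col3a1 have to be read against those of other probe sets of similar signal. Among the 53 measured genes with a mean signal over 100000, the median log2 ratio was 0.62. For the 89 genes within 1.5-fold of Col1a2 in mean signal it was 0.41, and for the 57 genes within 1.5-fold of Col3a1 it was 0.57, with 10th and 90th percentiles of 0.12 and 0.90. Both genes therefore lay within the range of other genes of their signal. With loess on signal their log2 ratios were 0.44 and 0.54, and with quantile normalization 0.27 and 0.25. Col1a1 had a log2 ratio of 0.21 against a median of 0.17 for the 161 genes near it in signal.

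**Figure D2:**
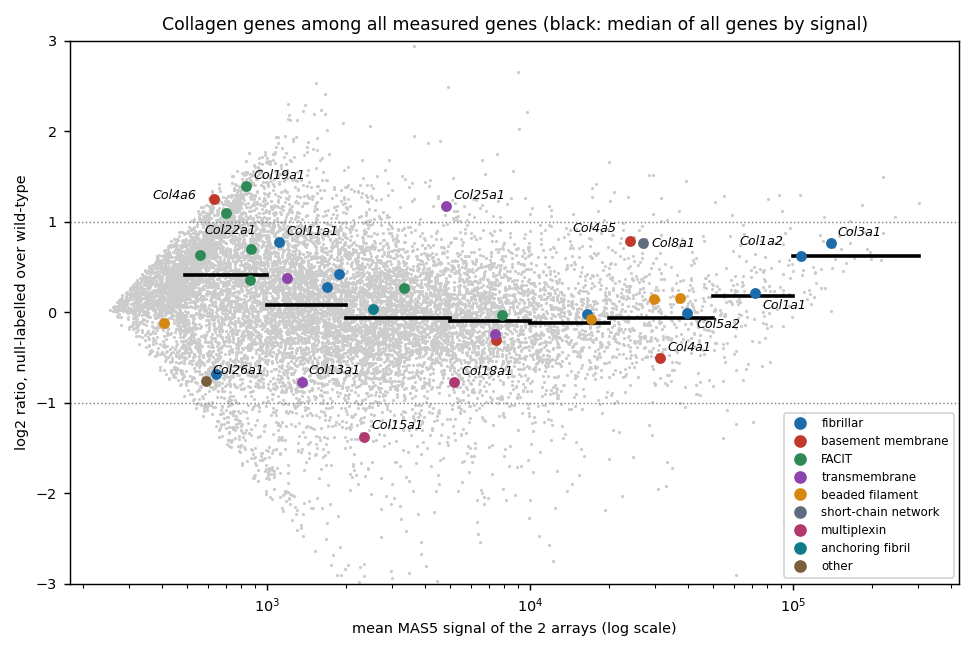
Log2 ratio (null-labelled over wild type) against the mean signal of both arrays (log axis), for all measured genes (grey) and the 33 measured collagen genes (coloured by class); 60 genes lie beyond the vertical axis. Black bars give the median of all genes in bins of signal, which rises to 0.62 above 100000, next to Col1a2 and Col3a1, while Col4a5, Col8a1, Col25a1 and Col15a1 lie far from the bar of their bin.

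Collagen V starts and limits the width of collagen I fibrils, and its chains read nearly equal on the arrays. Col5a1 read 16598 and 16319, and Col5a2 39922 and 39537, log2 ratios of -0.024 and -0.014. A further Col5a2 probe set gave -0.019 (17572 and 17340), whereas a further Col5a1 probe set read 7390 and 4979, a log2 ratio of -0.57. Col5a3, the remaining chain of collagen V, read 1537 and 1867, 1.21-fold higher. Col3a1 and Col5a2 are neighbours in the RefSeq gene order of chromosome 1, and their log2 ratios were 0.76 and -0.014.

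Among the minor fibrillar collagens the ratios went both ways. Col11a1, a chain that sits inside thin fibrils of cartilage and of some soft tissues, read 821 and 1406, 1.71-fold higher, and 528 and 582 at its other probe set, a log2 ratio of 0.14. Col24a1, a fibrillar chain of developing bone, read 795 and 494, 1.61-fold lower, with the second value next to the limit. Col27a1, a fibrillar chain of cartilage and epithelia, read 1613 and 2166, 1.34-fold higher, and its other probe set 1098 and 1174. Col2a1, the defining collagen of cartilage, was under the limit at 122.5 and 43.7, and Col11a2 was too at 240 and 461.

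The cartilage markers give the context for Col11a1 and Col9a1. Of 14 cartilage marker genes 7 were measured, with a median log2 ratio of 0.38. Higher by 2-fold was 1 (Sox9, 1059 and 2217), a share of 14.3% against 6.01% of all measured genes, and 0 were lower. For 4 of the 7 the wild-type signal was under the limit, so that they entered only through the array on which they were high. Only 3 of the 14 reached the limit in wild type, against 7 on the null-labelled array. With centring, quantile normalization or loess 0 markers were higher, and the list median ran from 0.083 with loess to 0.94 with no limit. Their summed signal was 4301 and 7916, and 0 of them were listed at 0. The part of cartilage in these ratios was not tested. Of 5 bone marker genes in the table, 3 were measured and 2 were 2-fold higher, against 6.01% of all measured genes. They were the phosphatase gene Alpl (763 and 2482) and Sp7 (at least 2.10-fold, 466.5 and 1029). Sp7 and the third measured gene, Ibsp, had a wild-type signal under the limit, so only Alpl reached it on both arrays. The count of higher bone markers was 1 with centring, with quantile normalization and with loess. Their summed signal was 1517 and 4524, and the part of bone in the collagen I and Col24a1 ratios was not tested.

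Among basement membrane collagens, the brightest probe sets read higher on the null-labelled array for Col4a5 and Col4a6, and lower for Col4a1 and Col4a2. The value of Col4a6 was a bound, and Col4a3 and Col4a4 were not measured. Collagen IV is the sheet-forming collagen of every basement membrane. The 6 genes of its chains lie in head-to-head pairs, Col4a1 with Col4a2, Col4a3 with Col4a4, and Col4a5 with Col4a6, which are adjacent in the RefSeq gene order. Col4a1 and Col4a2 make the form found in nearly all tissues. The form that holds Col4a5 and Col4a6 is found in smooth muscle and in some epithelial basement membranes, and in humans deletions that reach from COL4A5 into COL4A6 cause overgrowth of esophageal smooth muscle (diffuse leiomyomatosis).

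Col4a5 and Col4a6 read higher on the null-labelled array at each of their probe sets. Col4a5 read 17684 and 30436, 1.72-fold higher, and 2383 and 5056 at its other probe set, a log2 ratio of 1.09. Among the 547 genes within 1.5-fold of Col4a5 in mean signal, the median log2 ratio was -0.078 and the 90th percentile 0.56, so 0.78 lay above that range. Col4a6 read 94.0 on the wild-type array, under the limit, and 1166 on the null-labelled array, at least 2.38-fold higher. Its other probe set read 36.5 and 1136. The null-labelled signals of both Col4a6 probe sets stood above the limit and both wild-type signals well under it.

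Col4a1 and Col4a2 went the other way by a smaller step. Col4a1 read 36800 and 25885, 1.42-fold lower, although its other probe set read 8128 and 8935, a log2 ratio of 0.14. Col4a2 read 8215 and 6645, 1.24-fold lower. Both steps are smaller than 0.56, the pooled SD of log2 ratios among a gene's own probe sets over all genes. Col4a3 and Col4a4, chains known from kidney, lung and inner ear, were under the limit at all 5 of their probe sets. Over the 4 measured genes of the class the median log2 ratio was 0.24, and without the bound of Col4a6 it was -0.31 over 3.

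The promoter windows of these pairs are shown because the brightest probe sets of a pair had ratios of 1 sign, above 0 for Col4a5 and Col4a6 and below 0 for Col4a1 and Col4a2. Each runs from 250 bases before to 50 bases after the start of the gene, on the gene's own strand, 5′ to 3′, from RefSeq (GRCm38.p6); capitals mark each GGGCGG, or its reverse complement, the letters of a GC box. The window of Col4a5 is chrX:141475169-141475468 (plus strand) and that of Col4a6 chrX:141474027-141474326 (minus strand). Their starts lie 1343 bases apart and point away from each other. The window of Col4a1 is chr8:11312777-11313076 (minus strand) and that of Col4a2 chr8:11312555-11312854 (plus strand). Those starts lie 21 bases apart, and the windows share 78 bases. The marked match of Col4a1 and the last one of Col4a2 are the same bases, within this shared stretch.
Col4a5: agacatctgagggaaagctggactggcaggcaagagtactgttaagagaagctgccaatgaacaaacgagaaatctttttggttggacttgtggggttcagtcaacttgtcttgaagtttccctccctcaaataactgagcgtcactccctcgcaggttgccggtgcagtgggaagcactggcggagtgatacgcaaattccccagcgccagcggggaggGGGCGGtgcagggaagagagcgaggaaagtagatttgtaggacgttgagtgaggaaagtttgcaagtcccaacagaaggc
Col4a6: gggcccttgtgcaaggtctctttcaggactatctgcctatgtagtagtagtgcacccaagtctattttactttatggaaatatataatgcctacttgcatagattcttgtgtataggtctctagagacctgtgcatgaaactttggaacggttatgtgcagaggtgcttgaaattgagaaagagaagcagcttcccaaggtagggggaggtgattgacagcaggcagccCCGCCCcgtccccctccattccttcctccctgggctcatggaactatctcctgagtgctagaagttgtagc
Col4a1: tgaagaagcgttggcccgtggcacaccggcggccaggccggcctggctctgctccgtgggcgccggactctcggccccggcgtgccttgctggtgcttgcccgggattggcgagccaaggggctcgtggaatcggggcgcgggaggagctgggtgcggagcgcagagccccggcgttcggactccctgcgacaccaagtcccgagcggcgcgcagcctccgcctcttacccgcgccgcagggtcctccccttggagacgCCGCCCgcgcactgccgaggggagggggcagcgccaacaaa
Col4a2: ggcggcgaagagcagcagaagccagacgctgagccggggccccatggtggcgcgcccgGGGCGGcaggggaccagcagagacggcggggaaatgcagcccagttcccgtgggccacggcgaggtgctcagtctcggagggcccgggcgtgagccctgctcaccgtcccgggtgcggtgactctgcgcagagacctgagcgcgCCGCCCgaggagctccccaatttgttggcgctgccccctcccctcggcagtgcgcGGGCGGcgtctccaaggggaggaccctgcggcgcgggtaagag
GGGCGG was found, on either strand, 1 time each in the windows of Col4a5, Col4a6 and Col4a1 and 3 times in that of Col4a2. It occurs in 35.7% of all 32851 RefSeq windows of this length and in 22 of 36 windows of collagen genes, which cover 33 of the 42 genes. The GC content was 74% and 73.7% for Col4a1 and Col4a2, and 52.7% and 48.3% for Col4a5 and Col4a6. CAGCTG, a form of the E-box (CANNTG) that myogenic factors bind, was found 0 times in each of these windows and is in 16.3% of all windows. A match or its lack describes these letters only.

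Col4a5 and Col4a6 are X-linked, and X- and Y-linked genes differed between the arrays. Xist, the RNA of the inactive X chromosome, read 42465 and 24254, and the Y-linked Eif2s3y and Kdm5d read 10.6 and 2402, and 160 and 1159. Over the 442 measured X-linked genes the median log2 ratio was 0.060, against 0.085 for 12797 autosomal genes, and 6.11% of them were higher by 2-fold or more, against 5.91%. The part of sex in the ratios of Col4a5 and Col4a6 was not tested further. Smooth muscle markers stood beside them as follows. Of 10 marker genes, all measured, 2 were at least 2-fold higher (Mylk and Lmod1, 20%, against 6.01% of all measured genes). Lower was 1 (Des, 10%, against 5.36%), and 7 ratios were above 0 and 3 below. The median log2 ratio was 0.47 and the summed signals were 342522 and 678635. Mylk (115515 and 326483) and Acta2 (131127 and 242976) made most of the difference between these sums. Both had a mean signal over 100000, where the median log2 ratio of all genes was 0.62. Other Mylk probe sets gave 0.084 and 1.86, and Lmod1 was a bound (419 and 1307). With quantile normalization 1 marker was higher, and the list median stayed at 0.33 or above in all alternatives. None was listed at 0, and the part of smooth muscle in the collagen ratios was not tested.

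The FACIT collagens had the highest median of the classes with more than 1 measured gene, 0.63 over 7 measured of 9 genes, but it rests on genes next to the limit. Over the 4 that reached the limit on both arrays it was 0.31, and with loess on signal it was 0.35 over 7. None was lower by 2-fold, and 2 were higher, a share of 28.6% against 6.01% of all measured genes. Both had a wild-type signal under the limit, and of the 4 at the limit on both arrays 0 were higher. Signals near the limit were in general higher on the null-labelled array: 3261 genes with a mean signal between 489 and 1000 had a median log2 ratio of 0.41.

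Col19a1, a FACIT collagen needed in the mouse for the esophageal muscle coat to turn from smooth to striated muscle, read 385 and 1284, at least 2.63-fold higher. Its other probe sets were under the limit, at 347 and 66.0 and at 47.4 and 53.3, and at the brighter of these the null-labelled signal was the lower. Col22a1, a collagen of the junction between muscle and tendon, read 358 and 1048, at least 2.14-fold higher. Its other probe sets were under the limit on both arrays and read lower on the null-labelled one, at 202 and 156 and at 246.5 and 87.9. So for Col19a1 and for Col22a1 the call rests on 1 probe set of 3. With loess on signal the bound of Col22a1 was 0.87 and that of Col19a1 1.20 on the log2 scale.

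Col12a1 and Col14a1 coat collagen I fibrils in dense connective tissue. Col14a1 read 7949 and 7763, a log2 ratio of -0.034, and 1522 and 2525 at another probe set, a log2 ratio of 0.73. Col12a1 read 759 and 968, 1.28-fold higher, and 570 and 790 at another. These values give no common step for Col14a1. Col16a1, a FACIT collagen of smooth muscle and skin, read 3011 and 3629, 1.21-fold higher. Col20a1 read 356 and 759, at least 1.55-fold higher, and 156 and 694 at another probe set, a bound of 0.50 on the log2 scale. Of the chains of collagen IX, the FACIT collagen of cartilage, Col9a1 read 665 and 1079, 1.62-fold higher, and 297 and 794 at its other probe set, a bound of 0.70. Col9a2 (26.3 and 28.8) and Col9a3 (4.55 and 478 at its brightest probe set) were under the limit on both arrays.

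The transmembrane collagens, all 4 measured on both arrays, differed among themselves and had a median log2 ratio of 0.070. Col25a1, a membrane collagen that developing muscle needs for its motor innervation, read 2966 and 6674, 2.25-fold higher. Its log2 ratio of 1.17 lay above the 90th percentile (0.51) of the 2058 genes within 1.5-fold of it in mean signal. A second Col25a1 probe set was under the limit on both arrays and read lower on the null-labelled one, at 454 and 214. Col13a1, a collagen of the neuromuscular synapse, read 1710 and 1004, 1.70-fold lower, inside the range of genes of its signal (10th percentile -0.79). Col13a1 and Col25a1 are both known for nerve and muscle contact, and their ratios had opposite signs.

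Col17a1, the hemidesmosome collagen that ties basal keratinocytes to their basement membrane, read 7972 and 6760, 1.18-fold lower. Col7a1, which forms the anchoring fibrils below the same membrane, read 2509 and 2573, a log2 ratio of 0.036. Col23a1, a membrane collagen of epithelia, read 1040 and 1352 at its brightest probe set, 969 and 845 at the next and 579 and 836 at the last, log2 ratios of 0.38, -0.20 and 0.53. Of 8 basal squamous epithelium markers, all measured, 2 were 2-fold lower (Lamb3 and Krt14), 25% against 5.36% of all measured genes, and 0 higher. The marker median was -0.21 and the summed signals were 177556 and 166150. The part of the epithelium in the ratios of Col17a1, Col7a1 and Col23a1 was not tested.

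Collagen XV and collagen XVIII, the multiplexins, bind the outer face of basement membranes of muscle, vessels and epithelia, and both read lower. Col15a1, whose loss causes a mild muscle disease in mice, read 3396 and 1309 at its 1 probe set, 2.59-fold lower. Its log2 ratio of -1.38 lay below the 10th percentile (-0.76) of the 2964 genes within 1.5-fold of it in mean signal. Col18a1 read 6501 and 3806, 1.71-fold lower, but 2971 and 2966 at its other probe set, a log2 ratio of -0.002. Striated muscle markers stood far lower. Of 12, all measured, 11 were at least 2-fold lower (91.7%, against 5.36% of all measured genes) and 0 higher. Their median was -5.54 and their summed signals were 399500 and 9073. Of 9 endothelium markers 7 were measured, 0 lower and 1 higher (14.3%, against 6.01% of all measured genes). The higher gene was Emcn, a bound at 486 and 1070. With quantile normalization and with loess 8 were measured, 1 lower and 0 higher. As reported, the endothelium median was 0.069 and the summed signals were 10114 and 8808. That median turned to -0.017 with centring, -0.040 with quantile normalization, -0.056 with loess, -0.26 under a limit at the 75th percentile, -0.61 at the 25th and -0.60 with no limit. None of either list was listed at 0, and the part of muscle or vessels in the Col15a1 ratio was not tested.

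The windows of Col15a1 and Col25a1 are shown as those of the members with the largest steps among genes measured on both arrays, on the same terms as above. They are chr4:47207762-47208061 and chr3:130180595-130180894, both on the plus strand.
Col15a1: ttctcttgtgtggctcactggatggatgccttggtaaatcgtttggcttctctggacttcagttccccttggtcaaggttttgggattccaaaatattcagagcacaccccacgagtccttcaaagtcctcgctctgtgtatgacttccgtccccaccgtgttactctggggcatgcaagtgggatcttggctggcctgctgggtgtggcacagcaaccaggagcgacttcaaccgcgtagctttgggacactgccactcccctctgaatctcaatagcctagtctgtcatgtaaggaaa
Col25a1: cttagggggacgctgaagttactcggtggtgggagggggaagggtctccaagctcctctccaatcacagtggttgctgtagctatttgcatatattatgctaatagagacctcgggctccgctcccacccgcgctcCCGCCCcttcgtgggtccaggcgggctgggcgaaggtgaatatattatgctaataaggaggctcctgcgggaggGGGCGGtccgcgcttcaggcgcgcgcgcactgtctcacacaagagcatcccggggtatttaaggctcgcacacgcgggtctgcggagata
GGGCGG was found 0 times in the window of Col15a1 and 2 times in that of Col25a1. CAGCTG was in neither, and CANNTG, present in 72.3% of all windows, was found 1 time in that of Col15a1.

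Collagen VI is the beaded microfibril around muscle fibers and fibroblasts, and its main chains read nearly equal on the arrays. Col6a1 read 17555 and 16629, Col6a2 35094 and 39229, and Col6a3 28324 and 31211, log2 ratios of -0.078, 0.16 and 0.14. These 3 chains thus spanned 0.24 on the log2 scale, about as much as Col4a1 and Col4a2 (0.20). The chains of collagen I spanned 0.41 and those of collagen V 0.31. Col6a4 read 533.5 and 280, a bound of -0.13, and Col6a5 was under the limit at 103 and 344. Col6a2 had a further probe set at 16526 and 15104, a log2 ratio of -0.13.

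Collagen VIII forms hexagonal networks in vessel walls and below endothelia, and is also made by smooth muscle. Col8a1 read 19970 and 33804, 1.69-fold higher, above the 90th percentile (0.54) of the 492 genes near it in signal. Another Col8a1 probe set read 791 and 611, a log2 ratio of -0.37, which made it the collagen gene whose measured probe sets lay furthest apart, by 1.13. Col8a2 (276 and 430) and Col10a1, the collagen of hypertrophic cartilage (23.3 and 70.2), were under the limit on both arrays. Col26a1 read 830 and 342, at least 1.70-fold lower, with its other probe set under the limit.

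The agreement of probe sets sets the precision of these ratios. Of the 33 measured genes 18 had several measured probe sets, and all of a gene's ratios had the same sign for 13 of them. Signs differed for Col4a1, Col14a1, Col23a1, Col6a2 and Col8a1. The pooled SD between probe sets of 1 gene was 0.36 for these 18 collagen genes and 0.56 over 5455 genes, and it leaves out all variation between animals. Of the 52 measured collagen probe sets 1 was lower (1.92%) and 6 were higher (11.5%) by 2-fold or more, against 4.94% and 5.94% of all singly named measured probe sets. Among the 43 at the limit on both arrays 1 was lower and 2 were higher, where 768 and 698 of 16178 such probe sets were. The other higher ones were bounds, both Col4a6 probe sets among them. Among the 5 genes at least 2-fold apart, only Col4a6 had more than 1 measured probe set.

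**Figure D3:**
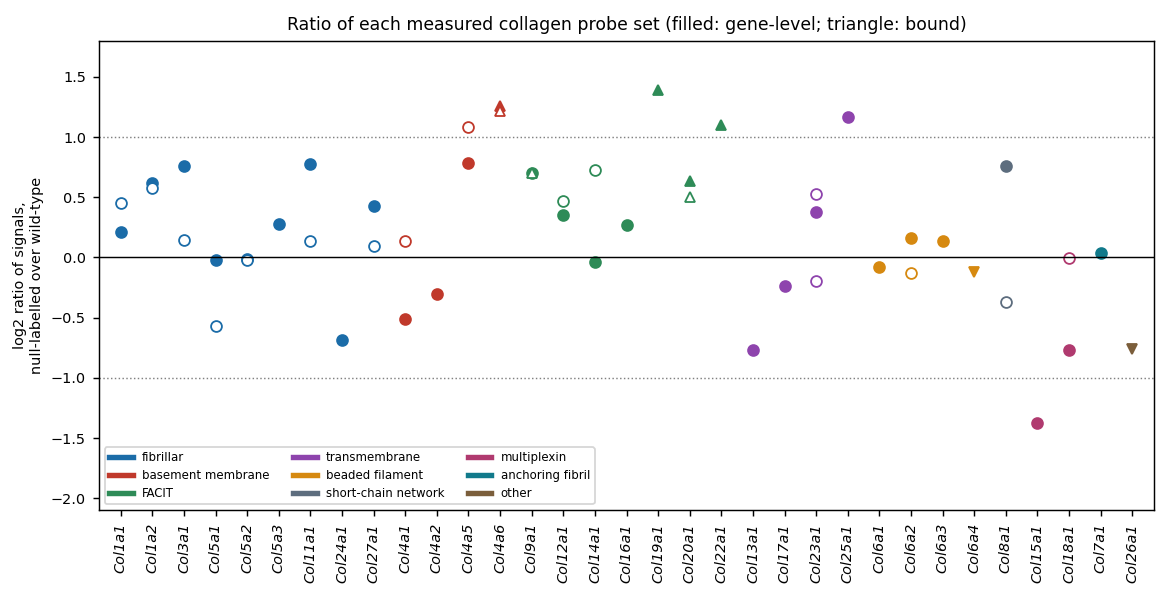
Log2 ratio of each measured collagen probe set, null-labelled over wild-type, by gene and class; filled symbols mark the probe set that stands for the gene, triangles a bound, and dotted lines 2-fold. Both probe sets of Col4a5 and of Col4a6 lie at 0.78 or more, those of Col5a2 lie on 0, and those of Col8a1 lie on either side of it.

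**Figure D4:**
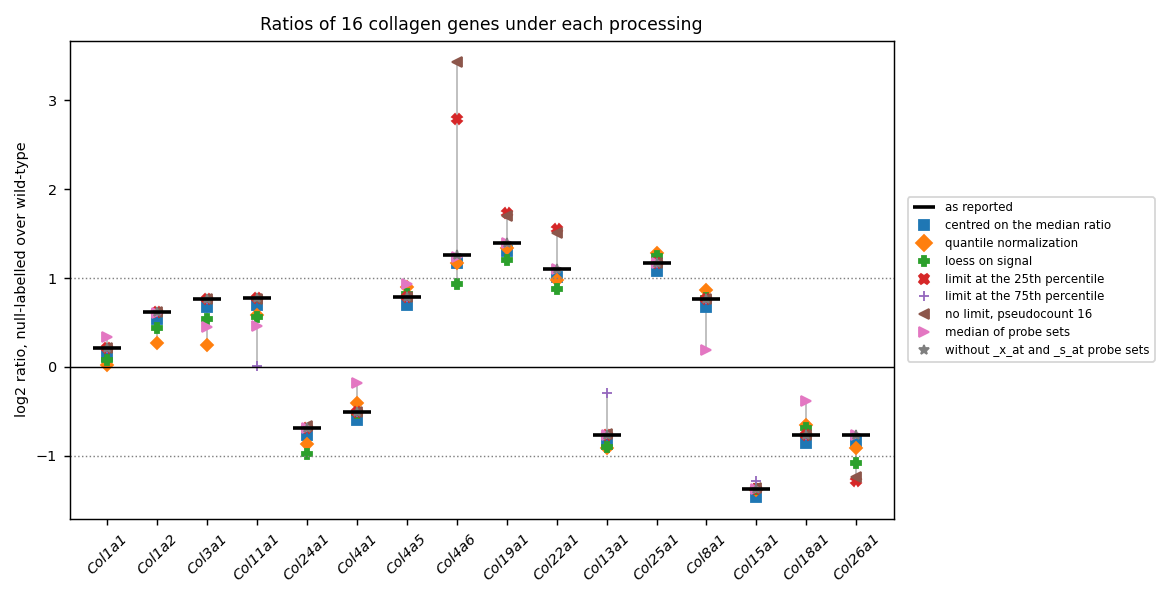
Log2 ratio of 16 collagen genes as reported (black bars) and under each other way of processing (symbols). Col15a1 stays between -1.46 and -1.28, Col25a1 stays above 1, and Col4a6 runs from 0.93 with loess on signal to 3.43 with no limit and a pseudocount of 16.

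The lists of other collagen genes are read beside all 13315 measured genes, of which 7535 had a ratio above 0 and 5780 below, 5.36% were 2-fold lower and 6.01% 2-fold higher. Of 22 genes of hydroxylation, folding and export 19 were measured, 14 with a ratio below 0. At least 2-fold lower was 1, a share of 5.26%, and 0 were higher. The median was -0.19, or -0.35 with probe sets of a gene combined by their median and -0.44 without _x_at and _s_at probe sets. The lower count was 3 of 19 with quantile normalization and with loess, where 6.16% and 7.29% of all measured genes were lower. It was 2 of 21 under a limit at the 25th percentile and with no limit, and 0 of 14 at the 75th. As reported, the 1 lower gene was the prolyl 3-hydroxylase P3h2, which acts on basement membrane collagens, at 1214 and 597, 2.03-fold. The prolyl 4-hydroxylase subunit P4ha1 read 1528 and 827, and Mia3, which loads collagen into transport vesicles, 3366 and 1829. The collagen chaperone Serpinh1 read 13215 and 12232, a log2 ratio of -0.11. P4ha1, Mia3 and Serpinh1 were picked with their values known. Of 15 genes that cut propeptides or cross-link fibers 9 were measured, 0 lower and 1 higher (median 0.36). That gene was Loxl3, a lysyl oxidase, at 458.5 and 1125, at least 2.30-fold, a call that was lost with loess (log2 0.86) and with quantile normalization, and the list median was 0.14 with loess. Lox, the main collagen cross-linking oxidase, read 13791 and 20824, 1.51-fold higher, and was chosen after its values were seen.

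Among genes that degrade or bind collagen, 1 was 2-fold apart, a receptor gene. Of 16 degradation genes 13 were measured and 0 were 2-fold apart (median 0.15). The cathepsin gene Ctsl read 25111 and 28429, and the protease inhibitor gene Timp2 17117 and 22980, with log2 ratios of -0.23, 0.28 and 0.63 at its other measured probe sets. Of 10 collagen receptor genes 7 were measured, all with a ratio above 0 (median 0.53). Of these 0 were lower and 1 higher, a share of 14.3% against 6.01% of all measured genes. For 2 of the 7, Itga10 and Lair1, the wild-type signal was under the limit, which allows no ratio below 0. Among the 5 at the limit on both arrays 0 were higher, with a median of 0.52. Other measured Ddr1 probe sets ran from -0.33 to 0.81, and another Ddr2 probe set gave -0.23. The higher gene was the integrin subunit Itga10, a receptor of chondrocytes, at 331 and 1193, at least 2.44-fold. The integrin subunit Itgb1, the partner of every collagen-binding integrin, read 3859 and 5884, 1.52-fold higher, and was chosen after its values were seen.

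Laminin genes gave the widest steps among other basement membrane genes. Of 16 measured genes of this list, 3 stood lower by 2-fold or more (18.8%, against 5.36% of all measured genes) and 1 higher (6.25%, against 6.01%), with a median of -0.38. The laminin chain genes were Lama5 (8547 and 2171, 3.94-fold), Lamb3 (2472 and 692.5, 3.57-fold) and Lama4 (3472 and 1413, 2.46-fold). Lama5 had a further probe set at 1041 and 968.5, a log2 ratio of -0.10, and Lama4 one with a bound of -0.076. Frem2, of the anchorage below epithelia, read 3453 and 7787, 2.26-fold higher, and was chosen after its values were seen. Of 12 measured small leucine-rich proteoglycans, which bind collagen fibrils and set their width, 0 were lower and 1 higher (median 0.17, but -0.002 with quantile normalization and -0.065 with loess on signal), Podn at 784 and 2068, 2.64-fold. Of 9 measured fibroblast markers 0 were lower and 1 higher, with a median of -0.072. The higher gene was Gsn, whose signals of 85210 and 176806 set the difference between the summed signals of 176300 and 267231. Its call was lost with centring, quantile normalization, loess, the median of probe sets and without _x_at and _s_at probe sets, and the list median turned to 0.14 with the median of probe sets. Of 5 measured tendon markers 0 were 2-fold apart (median -0.010, from -0.25 with loess to 0.13 without _x_at and _s_at probe sets; summed signals 8719 and 9596), and of 6 neuron and glia markers 1 was lower and 0 higher (median -0.51, or -0.14 with the median of probe sets; 24351 and 15937). No gene of these lists was listed at 0, and their part in the collagen ratios was not tested.

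**Figure D5:**
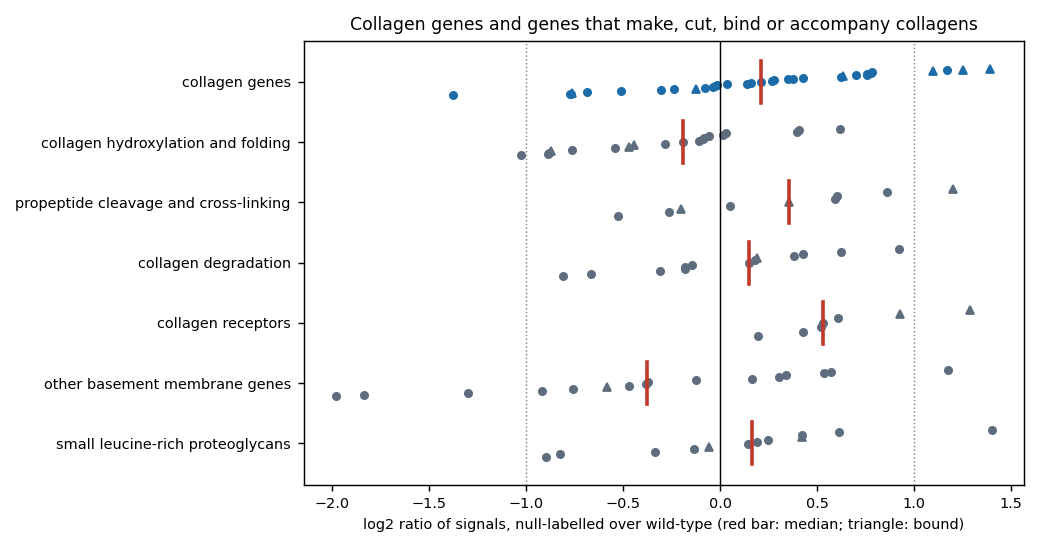
Log2 ratios of measured genes, null-labelled over wild-type, for the collagens and 6 lists of genes that make, cut, bind or accompany them; each point is a gene, triangles are bounds, red bars are medians and dotted lines mark 2-fold. The medians run from -0.38 (other basement membrane genes) to 0.53 (collagen receptors), with the collagens at 0.21.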

How the data were processed

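The deposited table holds 1 linear signal intensity per probe set and array. The submitters' processing notes name MAS5, and the sources used here give no version, settings or detection calls. Trimming 2% from each end gave a mean of 1500 on each array. RNA (6 µg) was extracted with Trizol per the labels' protocols. Of 45101 probe sets 64 are controls; 34945 carry 1 symbol in the platform annotation, 932 several and 9160 none. Entrez IDs matched RefSeq (GRCm38.p6) for 34741 probe sets and all 42 collagen genes. A gene took its probe set of highest mean signal. Ratios, the low-signal limit (489) and the 2-fold rule were computed as the report states, in Python 3.11.15 (pandas 2.3.3, numpy 2.4.6; loess from statsmodels 0.14.6). The steps were tested on simulated data with changes placed only in genes far above the limit, which does not cover calls near it. The members and lists were chosen with earlier results of these data known. Named are genes at least 2-fold apart, the brightest of each class, genes with discordant probe sets and, per other list, up to 3 largest ratios or the 2 brightest; some members are named beyond this. Alternatives were other scalings (centring, quantile, loess with span 0.3), a pseudocount of 16 without any limit, a limit set at the 25th or the 75th percentile of signal, a gene's median over its probe sets, leaving out _x_at and _s_at probe sets, and 4-fold. With 1 array per genotype the number of arrays limits the precision.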

Additional observations from a re-analysis of the deposited data

How the results depend on the processing

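The count of lower collagen genes, 1 as reported, was 2 with loess on signal, 2 with a limit taken from the 25th percentile of signal, 3 with no limit and 0 at 4-fold. The count of higher genes, 4 as reported, was 2 with loess, 7 and 1 with limits from the 25th and 75th percentiles, 8 with no limit and 0 at 4-fold. Over all genes, these lower and higher limits made 2742 and 148 genes higher and 1232 and 383 lower, no limit 3548 and 1704, and 4-fold 21 and 142. The collagen median was 0.35 under the lower limit and 0.036 under the higher one. Under the higher limit the basement membrane median was -0.31 over 3 genes and the FACIT median 0.12 over 2, and with loess the FACIT median was 0.35. The transmembrane median, 0.070, turned to -0.016 with centring and -0.24 under the higher limit. The higher limit leaves 23 collagen genes measured in place of 33; otherwise the cause was not tested. No collagen gene that was 2-fold apart changed sign in any alternative that gave it a value, but several alternatives could not have changed it. For Col4a6, Col19a1 and Col22a1 the wild-type signal was under the limit, which keeps the bound above 0. Col15a1, Col19a1, Col22a1 and Col25a1 had 1 measured probe set each, so the median over probe sets returned the same value. Probe sets of Col19a1, Col22a1 and Col25a1 under the limit did not enter that median. No paired analysis was possible because each genotype has 1 array and the labels carry no replicate numbers. Low signal limits the 9 genes under the limit and the 6 bounds.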
